A study of Mus musculus with 4 samples.

Results

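The genes described here are 8 members of the matrix metalloproteinase and tissue inhibitor of metalloproteinases (TIMP) families, Mmp2, Mmp3, Mmp9, Mmp10, Mmp14, Timp1, Timp2 and Timp3, out of 52636 genes in the matrices. They were found by their gene symbols, and each symbol matched 1 row. The list itself was selected on the results of these same libraries, with the difference between young and aged glomeruli already known, so the members' differences with age are given as a description, without p-values. The rule has no threshold. The study sequenced single cells from glomeruli, the filtering units of the kidney, of untreated mice in a young and an aged group, with 2 libraries in each. Glomeruli were caught with magnetic beads perfused through the animals and then digested to single cells. The labels give age only as these 2 words, and name no strain, sex, age in months or number of animals per library. Adjusted p-values given below for other genes therefore measure only the spread between these libraries, which may be technical.

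Matrix metalloproteinases are zinc-dependent enzymes that cut collagens, laminins, proteoglycans and other proteins of the extracellular matrix, and most are made as inactive precursors. TIMPs bind the active enzymes and block them. Mmp14 encodes MT1-MMP, an enzyme anchored in the cell membrane that activates the precursor of MMP2, a step in which TIMP2 acts as the bridge, while TIMP3 is held in the matrix. In the glomerulus, mesangial cells hold the capillary tuft together and lay down the mesangial matrix, podocytes and endothelial cells share the basement membrane between them, and turnover of both matrices depends on this balance of enzymes and inhibitors.

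Mmp3 (stromelysin 1) and Mmp10 (stromelysin 2) are neighbours on mouse chromosome 9. Their upstream sequences are shown because both hold the same 2 motifs, while only Mmp3 was detected in mesangial cells. The 250 bases before each start come from the RefSeq promoter table (GRCm38.p6), at chr9:7445572-7445821 for Mmp3 and chr9:7502092-7502341 for Mmp10, both on the plus strand. Capitals mark the AP-1 site TGAGTCA and the box TATAAA.
Mmp3: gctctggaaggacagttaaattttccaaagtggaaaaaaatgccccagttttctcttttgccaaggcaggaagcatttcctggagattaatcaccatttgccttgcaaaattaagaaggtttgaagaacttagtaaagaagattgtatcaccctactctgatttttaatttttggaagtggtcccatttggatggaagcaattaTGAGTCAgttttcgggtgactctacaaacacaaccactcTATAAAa
Mmp10: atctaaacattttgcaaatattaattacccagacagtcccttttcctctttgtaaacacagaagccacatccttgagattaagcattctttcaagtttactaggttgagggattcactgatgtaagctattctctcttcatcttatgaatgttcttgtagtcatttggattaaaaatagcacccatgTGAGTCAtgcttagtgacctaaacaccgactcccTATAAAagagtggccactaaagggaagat
The heptamer, which reads TGACTCA on the other strand, begins 46 bases before the start in Mmp3 and 63 bases before it in Mmp10. It is in the windows of 2 of the 6 members with an entry, and in 4.46% of the 32851 promoter windows of the same length. TATAAA, searched on both strands, was in the same 2 windows and in 12.4% of all windows. It begins 7 bases before the start in Mmp3 and 29 bases before it in Mmp10. Mmp14, Timp1, Timp2 and Timp3 had neither motif in this window. Timp1 is shown for contrast, as a member that was also higher in aged libraries (chrX:20869916-20870165, plus strand).
Timp1: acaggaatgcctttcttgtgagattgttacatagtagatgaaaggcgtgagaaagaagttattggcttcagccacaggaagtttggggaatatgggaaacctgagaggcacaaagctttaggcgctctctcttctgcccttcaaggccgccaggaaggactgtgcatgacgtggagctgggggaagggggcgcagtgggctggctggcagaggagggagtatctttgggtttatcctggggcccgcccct
In the GENCODE vM21 annotation of GRCm38, Mmp3 (ENSMUSG00000043613) runs from 7445822 to 7455975 and Mmp10 (ENSMUSG00000047562) from 7502352 to 7510240. Their transcripts share 202 stretches of 31 bases, of 1771 in Mmp3, but none of the 470 in the last 500 bases, which a 3′ library mainly reads. Timp1 (ENSMUSG00000001131, chrX:20870166-20874735) overlaps Syn1 and Timp3 (ENSMUSG00000020044, chr10:86300372-86349506) overlaps Syn3, each on the opposite strand, and Timp2 (ENSMUSG00000017466, chr11:118301069-118355740) overlaps Cep295nl on its own strand. Whether strand was used in counting is not given in the sources used here, so reads of these overlaps could be shared. No such overlap was annotated for Mmp2 (ENSMUSG00000031740, chr8:92827291-92853420), Mmp9 (ENSMUSG00000017737, chr2:164940780-164955850) or Mmp14 (ENSMUSG00000000957, chr14:54431612-54445364).

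The matrices held 33323 cell barcodes and between 18457791 and 42046542 UMIs (unique molecular identifiers, 1 per captured RNA molecule) per library. After filters, 28000 cells were left, with a median of 1258 to 3730 UMIs per cell. Young replicate 2 stood apart. It had the lowest median, and 62.8% of its cells, against 1.89% to 4.57% in the other libraries, fell in clusters or cells that carried markers of more than 1 type or too few markers, and were left unnamed. Members' log2 fold changes are also given without this library where that changed a call or a sign, and for the members that passed the threshold. Cells were named by their defining markers, and the podocyte, endothelial, mesangial, parietal epithelial, and smooth muscle and renin classes held at least 20 cells in every library. Of the cell barcodes kept, 78 (0.279%) occurred in more than 1 library. Levels are given as CPM, the UMIs of a gene in every 1000000 UMIs of the class in that library, and they are compared between classes and libraries, not between genes.

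The gelatinase Mmp2 and its activator Mmp14 were both highest in mesangial cells. The level of Mmp2 there was 107 CPM in young replicate 1, 119 in young replicate 2, 128 in aged replicate 1 and 168 in aged replicate 2. Next came smooth muscle and renin cells, at 7.63 to 29.2 CPM, and parietal epithelial cells, at 5.11 to 22.7 CPM, and the ranges of these neighbours overlapped. Endothelial cells had 1.57 to 2.64 CPM, and podocytes 0.258 to 1.24 CPM. Mmp14 followed the same first rank, with 77.6, 95.8, 102 and 122 CPM in mesangial cells in the same order of libraries. Macrophages were next, with 50.7 and 57.1 CPM in the aged libraries, the only libraries with at least 20 of them. Smooth muscle and renin cells (29.2 to 45.3 CPM) and parietal epithelial cells (9.95 to 40.9 CPM) overlapped each other, and endothelial cells were at 13.1 to 16.6 CPM.

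The stromelysins and Mmp9 were each found in few cells. Mmp3 had 672 UMIs in named cells, of which 669 were in mesangial cells and 3 in endothelial cells. None was found in podocytes, parietal epithelial, smooth muscle and renin, tubule or immune cells. In podocytes of young replicate 1, 0 of 1766 cells allows a share with a UMI of up to 0.170%. Mmp10 had 2 UMIs, both in 1 macrophage of aged replicate 2, among all 28000 cells. Mmp9, gelatinase B, is known as a granule enzyme of neutrophils, and its level in aged neutrophils was 681 CPM (66 UMIs in 62 cells) and 299 CPM (15 UMIs in 23 cells). Young replicate 1 had no neutrophil and young replicate 2 had 5, so no comparison with age could be made. In the remaining named classes Mmp9 reached at most 2.21 CPM.

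The 3 inhibitors had broader patterns. Timp3 was highest in endothelial cells, at 2498 and 2855 CPM in the young and 2696 and 3083 CPM in the aged libraries. Parietal epithelial cells (1980 to 2662 CPM) and podocytes (2068 to 2452 CPM) overlapped with them or with each other, and mesangial cells (1054 to 1380 CPM) were below all 3 in every library. Timp2 was highest in parietal epithelial cells (695 to 1028 CPM) and mesangial cells (720 to 778 CPM), whose ranges overlapped, then in aged macrophages (425 and 517 CPM) and podocytes (387 to 432 CPM). Endothelial cells were low in Timp2, at 87.0 to 122 CPM. Timp1, the inducible inhibitor, was sparse throughout, with 652 UMIs in 570 of 28000 cells. Its level was 6.28 to 12.8 CPM in endothelial cells and 0 to 28.8 CPM in parietal epithelial cells, and 0 in B cells, T and NK cells and neutrophils. Timp3 in B cells (7.08 to 158 CPM) and T and NK cells (0 to 187 CPM), which should lack it, shows the background, and it was highest in young replicate 2.

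**Figure D1:**
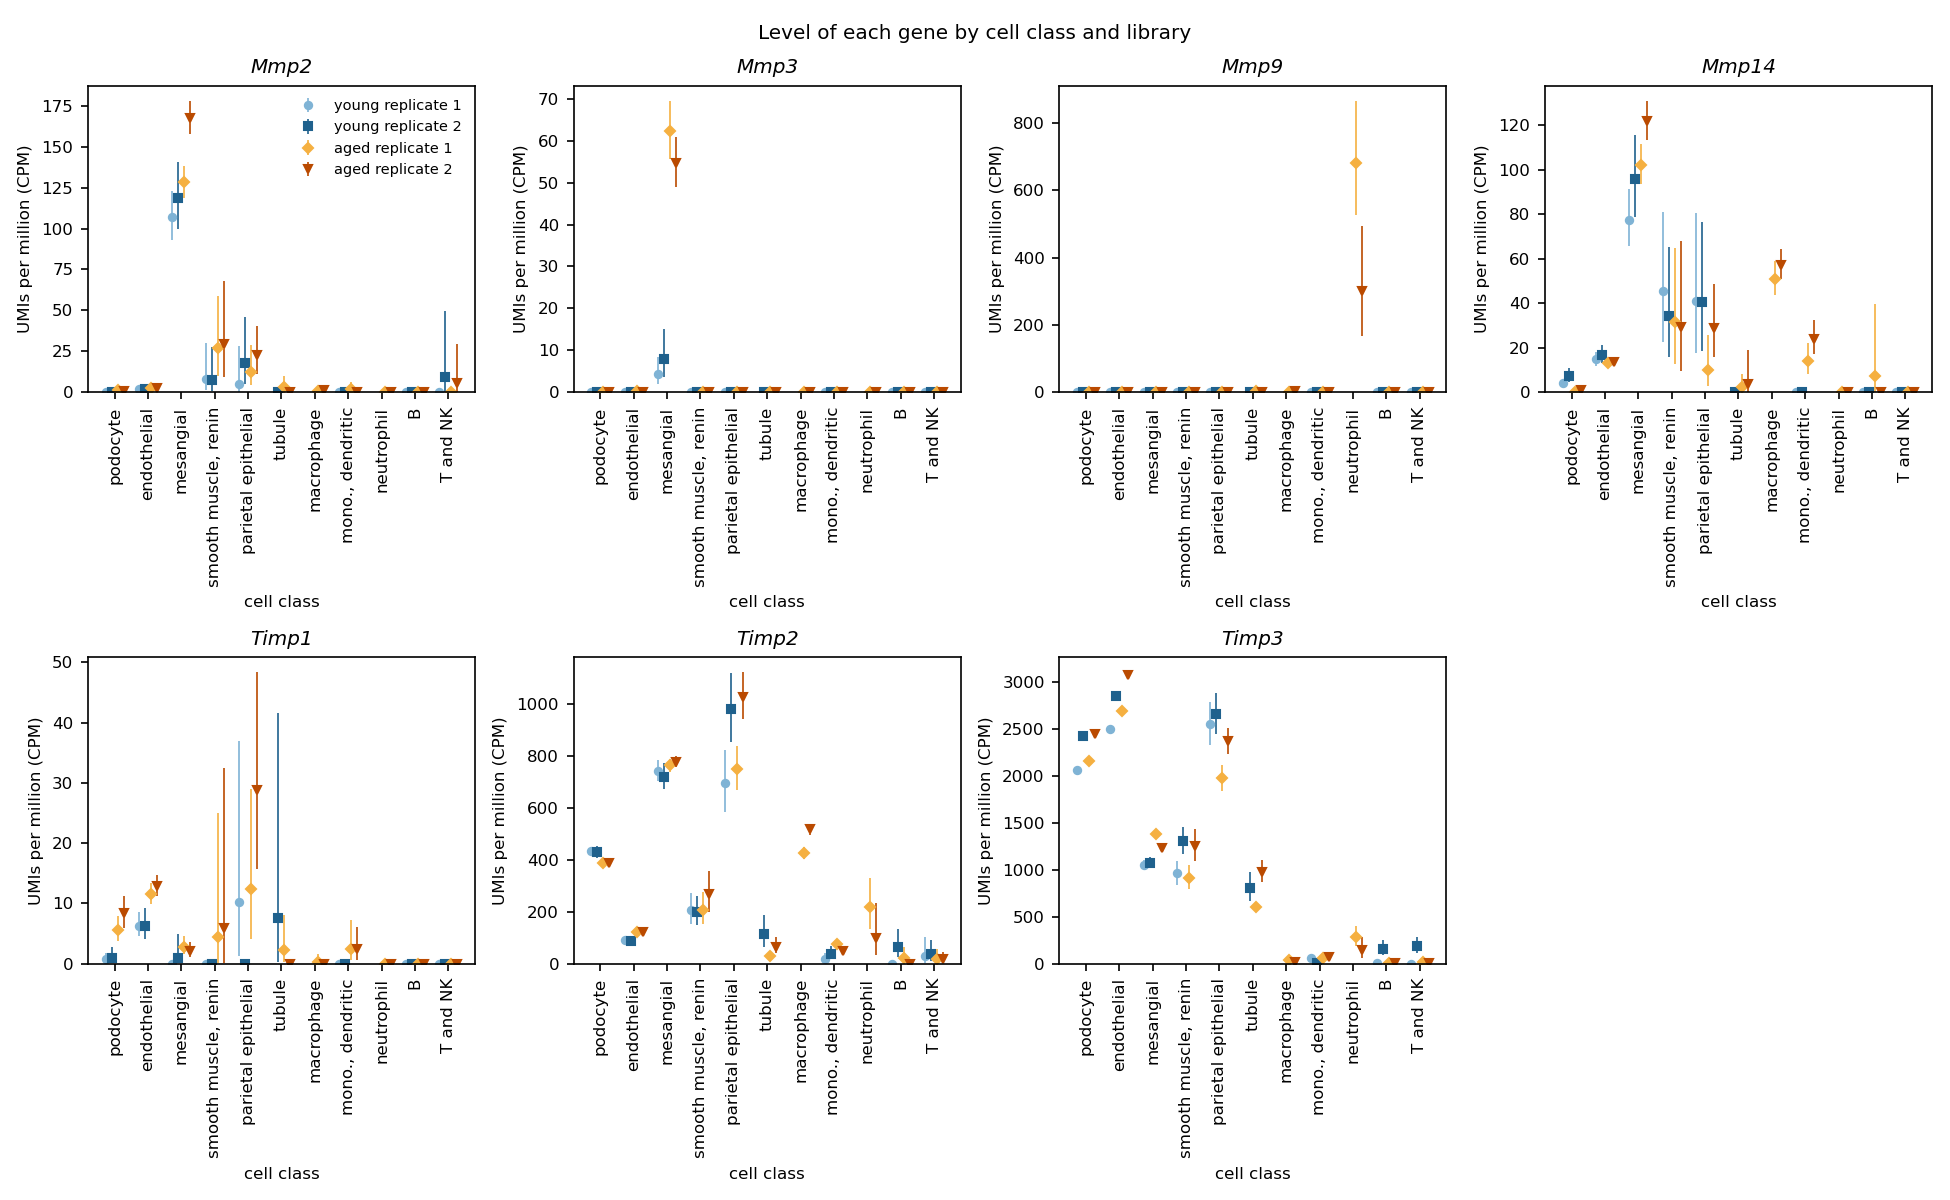
Level of 7 members (CPM, linear axes from 0) in each cell class and library. Each point is 1 library with at least 20 cells of the class, and bars are exact Poisson intervals (95%) where the gene had a UMI. Mmp2, Mmp3 and Mmp14 are highest in mesangial cells, Mmp9 in neutrophils, and Timp3 in endothelial cells, podocytes and parietal epithelial cells. Mmp10, with 2 UMIs, is not drawn.

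In mesangial cells Mmp3 was the member that differed most with age. Its level was 4.22 CPM (8 UMIs) in young replicate 1 and 7.98 CPM (9 UMIs) in young replicate 2, against 62.4 CPM (317 UMIs) in aged replicate 1 and 54.8 CPM (335 UMIs) in aged replicate 2. Both aged libraries were far above both young ones. The means were 6.10 ± 2.66 CPM (SD, n = 2) and 58.6 ± 5.39 CPM (SD, n = 2), and the fitted log2 fold change, aged against young, was 3.47 ± 0.29 (SE), or 11.1-fold higher. Of the 5 members tested in mesangial cells, this 1 passed the threshold, an adjusted p under 0.05 in edgeR's quasi-likelihood test. Over all 10895 genes tested there, 6.29% passed, and since the list was selected on this contrast nothing is read from its count. Without young replicate 2 the log2 fold change was 3.90, and without young replicate 1 it was 2.99.

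More mesangial cells had the transcript in aged glomeruli. An Mmp3 UMI was found in 4 of 275 cells (1.45%, exact 95% interval 0.398% to 3.68%) and 6 of 177 cells (3.39%, 1.25% to 7.23%) in the young libraries. In the aged libraries it was found in 109 of 684 cells (15.9%, 13.3% to 18.9%) and 99 of 540 cells (18.3%, 15.2% to 21.9%). The intervals of the young libraries do not meet those of the aged ones, and cover counting error only. Median depth differed between libraries, from 3823 UMIs per mesangial cell in young replicate 2 to 7476 in aged replicate 2. With each cell thinned to 1000 UMIs, leaving out 1 to 2 shallower cells per library, the shares were 0.365% and 0.568% in young and 4.69% and 5.20% in aged libraries. In podocytes, which should lack the gene and had median depths of 4198 to 7686 UMIs, the share was 0 in all 4 libraries.

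Most aged mesangial cells had no Mmp3 UMI, and those with one were deeper cells. In aged replicate 2 the median was 16321 UMIs in cells with the transcript and 6248 in those without, and in aged replicate 1 it was 9798 against 4232. A single cell of aged replicate 2 held 78 of the 335 UMIs, and the level without it was 42.2 CPM. The 10 highest cells held 37.9% of the Mmp3 UMIs in aged replicate 1 and 61.8% in aged replicate 2.

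The mesangial cells formed 2 clusters that largely followed age, cluster 11 with 1179 aged and 25 young cells and cluster 14 with 45 aged and 427 young cells. In cluster 11 the aged levels of Mmp3 were 63.8 and 55.6 CPM, and the 25 young cells had no UMI in 88646, which allows up to 33.8 CPM. In cluster 14 the young levels were 4.39 and 8.09 CPM, and the 45 aged cells had 1 UMI, giving 7.82 and 0 CPM. Cluster 11 was led by Cxcl13, Ccl2 and Rab3c and cluster 14 by Gucy1a3, Sfrp2 and Gprin3. With the members left out of the clustering, the mostly aged cluster had Mmp3 at 63.3 and 55.0 CPM in the aged libraries. Its 32 and 22 young cells had no Mmp3 UMI in 109422 and 64723 UMIs. The mostly young cluster then had 4.47 and 8.54 CPM in young libraries, and 9.81 and 0 CPM in 21 and 14 aged cells. Whether the level of Mmp3 goes with the cluster or with age cannot be told apart here, since few cells of either age are in the other cluster.

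**Figure D2:**
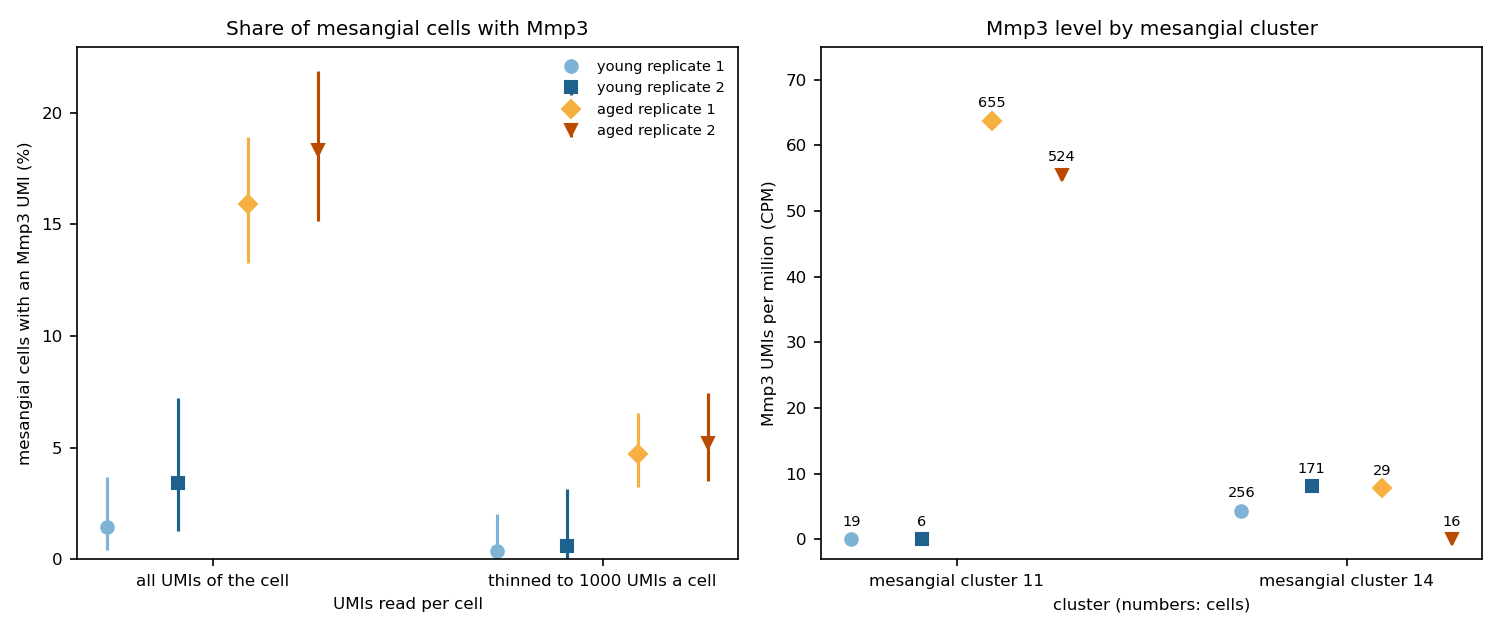
Mmp3 in mesangial cells by library. Left, share of cells with an Mmp3 UMI (percent, exact 95% intervals), with all UMIs of the cell and with each cell thinned to 1000 UMIs; both aged libraries are above both young ones in either case. Right, level (CPM) in the 2 mesangial clusters, with the number of cells over each point; high levels are seen in the aged libraries of cluster 11.

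Markers of other cells were read in the same mesangial sums. Of 8 fibroblast markers, a cell type known for Mmp3 and Mmp2, Dpt was at 0 in all 4 libraries, and Col1a1, Lum and Clec3b were at 0 in both young libraries and at no more than 0.654 CPM in the aged ones. Pdgfra was at 205 and 214 CPM in young and 107 and 149 CPM in aged libraries, while Dcn was at 4.75 and 1.77 CPM in young and 29.9 and 47.4 CPM in aged libraries. Col1a2 was at 67.0 and 75.4 CPM in young and 24.2 and 53.8 CPM in aged libraries. Pi16 was at 40.1 and 29.3 CPM in young and 24.0 and 27.5 CPM in aged libraries. The summed list was 317 and 320 CPM in young and 186 and 279 CPM in aged libraries. The 8 endothelial markers were at 8.28% to 9.44% of their level in endothelial cells in all 4 libraries, with none at 0. The mesangial cells' own 8 markers summed to 9405 and 9446 CPM in young and 6981 and 6788 CPM in aged libraries, with none at 0. The summed parietal epithelial list moved with age, from 8.37% and 9.97% to 18.8% and 23.5% of its level in parietal cells, with 5 of its 8 markers at 0 in each library and Cp alone at 185 and 218 CPM in young and 418 and 519 CPM in aged libraries. The part of these in the result for Mmp3 was not tested. Mmp3 itself had no UMI in parietal epithelial cells of any library.

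The other members differed less in mesangial cells. Mmp2 had a log2 fold change of 0.50 ± 0.16 (SE) and Mmp14 of 0.49 ± 0.17, and for both the aged libraries were above the young ones without overlap. Timp3 was at 1054 and 1075 CPM in young and 1380 and 1236 CPM in aged libraries, a log2 fold change of 0.41 ± 0.16. Timp2 was at 742 and 720 CPM in young and 763 and 778 CPM in aged libraries, a log2 fold change of 0.19 ± 0.15. None of the 4 passed the threshold, although without aged replicate 1 Mmp2 (0.67) and Mmp14 (0.60) did, and without aged replicate 2 Timp3 (0.54) did. With mixed cells kept, a choice made after seeing the data, Mmp2 (0.79), Mmp14 (0.78) and Timp2 (0.51) passed, and Timp3 moved to 0.07. Timp1 was too sparse for the filter, with 0 and 1 UMI in young and 14 and 13 UMIs in aged mesangial cells. Cells with and without a UMI of the senescence marker Cdkn2a differed in Mmp3 in opposite ways in the aged libraries. Its level was 43.9 CPM in the 84 cells with Cdkn2a and 67.5 CPM in the 600 without in aged replicate 1, and 95.1 CPM in 94 and 38.9 CPM in 446 cells in aged replicate 2. The cell of aged replicate 2 with 78 UMIs was among those with Cdkn2a. The highest cell of each group was then left out, a choice made after seeing the data. The levels in aged replicate 2 were then 50.9 CPM with and 29.7 CPM without Cdkn2a. In aged replicate 1 they were 33.4 CPM with and 63.5 CPM without Cdkn2a. In both libraries, cells with Cdkn2a were deeper, with medians of 8618 and 16085 UMIs.

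Podocytes showed Timp1 and Mmp14 in opposite directions. Timp1 was at 0.774 CPM (6 UMIs) in young replicate 1, 0.922 CPM (3 UMIs) in young replicate 2, 5.51 CPM (31 UMIs) in aged replicate 1 and 8.31 CPM (41 UMIs) in aged replicate 2. Both aged libraries were above both young ones, and the log2 fold change was 3.08 ± 0.47 (SE), or 8.44-fold higher. Mmp14 was at 3.87 CPM (30 UMIs) and 7.38 CPM (24 UMIs) in young libraries and at 0.178 CPM (1 UMI) and 0.811 CPM (4 UMIs) in aged ones. The groups did not overlap here either, and the log2 fold change was -3.34 ± 0.61, or 10.1-fold lower. These 2 of the 4 members tested passed the threshold, where 5.16% of 10880 genes did. With doublets kept, neither passed, with log2 fold changes of 2.50 for Timp1 and -3.31 for Mmp14. Without young replicate 2 the values were 3.13 for Timp1 and -2.96 for Mmp14. Without 1 aged library the value for Mmp14 was -2.59 or -4.69, and both genes still passed without any single library.

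Few podocytes had either transcript. A Timp1 UMI was found in 6 of 1766 (0.340%) and 2 of 583 (0.343%) young podocytes, and in 21 of 988 (2.13%) and 26 of 654 (3.98%) aged podocytes. An Mmp14 UMI was found in 1.64% and 3.95% of young and 0.101% and 0.612% of aged podocytes. Thinned to 1000 UMIs, shares of both genes were at most 0.767% in every library, near the level of single UMIs, and no change is read from them. The Timp1 UMIs were nearly all in 1 of the 2 podocyte clusters, cluster 1, at 0.965 and 1.18 CPM in young and 6.88 and 10.1 CPM in aged libraries, while cluster 8 was at 0 to 1.04 CPM. Mmp14 was lower in aged libraries in both clusters, from 3.67 and 6.27 to 0.222 and 0.755 CPM in cluster 1 and from 4.27 and 11.4 to 0 and 1.04 CPM in cluster 8.

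Markers of neighbouring cells in the podocyte sums were low. The 8 endothelial markers were at 0.322% and 1.02% of their endothelial level in young and 0.653% and 0.451% in aged libraries, with none at 0, and the 8 mesangial markers were at 0.437% to 0.549% in all 4, with Gata3 at 0 in both aged libraries. Mesangial RNA at these shares, times the mesangial level of Mmp14 in the same library, comes to 0.426 and 0.484 CPM in young and 0.512 and 0.534 CPM in aged libraries. The parietal epithelial list was at 3.21% and 4.47% in young and 2.15% and 2.19% in aged libraries, and Pax2 was at 0 in all 4. The list summed to 72.2 and 100 CPM in young and 48.3 and 49.3 CPM in aged libraries. Most of this was Ncam1, at 58.5 and 83.6 CPM in young and 38.9 and 40.3 CPM in aged libraries. The part of this list in the result for Mmp14 was not tested. Timp2, at 432 and 429 CPM in young and 387 and 389 CPM in aged podocytes, had a log2 fold change of -0.09 ± 0.13, and Timp3 of 0.10 ± 0.15. Timp2 was lower in both aged libraries by a small amount, and Timp3 overlapped between the groups. Mmp2, Mmp3, Mmp9 and Mmp10 did not pass the filter, with at most 7 UMIs per library.

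**Figure D3:**
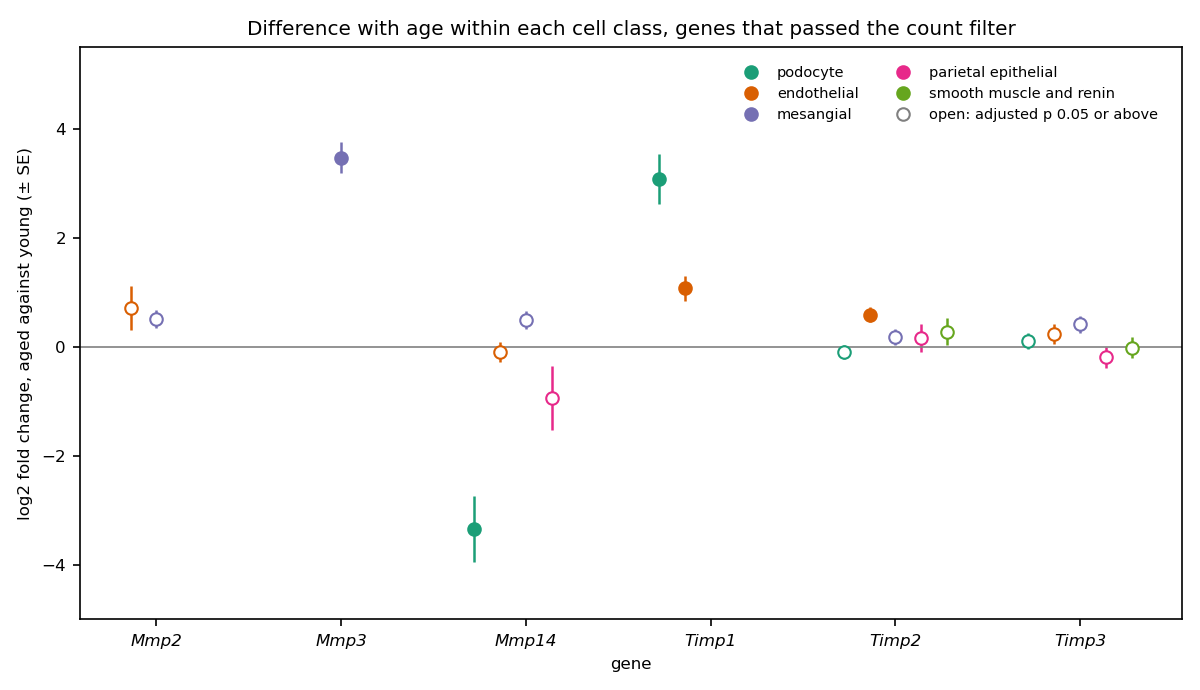
Log2 fold change, aged against young, ± SE from edgeR's fit, of the members that passed the count filter in each of 5 classes. Filled points have an adjusted p under 0.05. Mmp3 in mesangial cells (3.47) and Timp1 (3.08) and Mmp14 (-3.34) in podocytes lie far from 0, and the values of Timp2 and Timp3 lie between -0.20 and 0.59.

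Endothelial cells had higher Timp1 and Timp2 in the aged libraries. Timp1 was at 6.29 CPM (40 UMIs) and 6.28 CPM (25 UMIs) in young and 11.5 CPM (186 UMIs) and 12.8 CPM (209 UMIs) in aged libraries, a log2 fold change of 1.07 ± 0.22 (SE). Timp2 was at 89.4 and 87.0 CPM in young and 122.0 and 122.1 CPM in aged libraries, a log2 fold change of 0.59 ± 0.14. For both genes the 2 libraries of a group were close together and the groups did not overlap. They are the 2 of 5 members tested that passed, where 6.06% of 13148 genes did. Neither passed without young replicate 1, at 1.14 and 0.67, or without young replicate 2, at 1.03 and 0.52, where no gene passed in endothelial cells, and Timp2 did not pass without either aged library, at 0.59 in both. Thinning the sums to equal depth gave 0.78 for Timp1, which did not pass. Mmp2 had a log2 fold change of 0.71 ± 0.40 on 7 to 43 UMIs per library, Timp3 of 0.24 ± 0.18 and Mmp14 of -0.11 ± 0.18, and none of these passed.

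The endothelial clusters, numbered as they came from the clustering, differed in which members they had. Mmp2 was found mainly in cluster 4, led by Esm1, Igfbp3 and Fbln5, at 11.2 and 13.5 CPM in young and 10.5 and 12.1 CPM in aged libraries. It reached at most 6.19 CPM in any other endothelial cluster with at least 20 cells. In the same cluster Mmp14 was at 25.6 and 33.7 CPM in young and 9.93 and 13.9 CPM in aged libraries (10 to 23 UMIs each), with no overlap, while over all endothelial cells it differed little. Timp3 was highest in cluster 10, led by Tspan8, Thbs2 and Fbln2, at 4681 and 5171 CPM in young and 3579 and 4279 CPM in aged libraries, and there the young libraries were above the aged ones, opposite to the order in clusters 0, 2, 4, 6 and 7. Timp2 in the aged libraries was above the young ones in clusters 0, 2, 4, 5, 6, 7 and 10. Timp1 was above in clusters 0, 2, 5, 7 and 10, but the groups overlapped in cluster 4 (4.80 and 10.1 CPM in young, 8.83 and 9.70 CPM in aged libraries), in cluster 6 (16.5 and 4.89 against 14.8 and 16.4 CPM, on 3 and 1 UMIs in the young libraries) and in cluster 23. Clusters come from the same counts, so these levels are a description. Cluster 6 held 1568 aged and 86 young endothelial cells. The neutrophil, B, and T and NK lists were each at or below 0.083% of their own level in endothelial sums. The macrophage list moved with age, from 0.0139% and 0.0413% to 0.100% and 0.115%, with 5 and 1 of its 8 markers at 0 in the young libraries and none in the aged ones. The parietal epithelial list moved too, from 0.622% and 0.849% to 1.31% and 1.99%, and 7 and 4 of its 8 markers were at 0 in young against 0 and 3 in aged libraries. The podocyte list was at 4.25% and 5.96% in young and 3.76% and 3.64% in aged libraries, the monocyte and dendritic list at 4.34% to 7.64% with overlap, and the endothelial cells' own list at 107% in both young libraries, against 98.0% and 88.4% with age. The part of these lists in the results for Timp1 and Timp2 was not tested. Macrophages had 1 UMI of Timp1 in 1075 aged cells, and Timp2 at 425 and 517 CPM in the aged libraries. Parietal epithelial cells had Timp1 at 0 to 28.8 CPM and Timp2 at 695 to 1028 CPM.

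**Figure D4:**
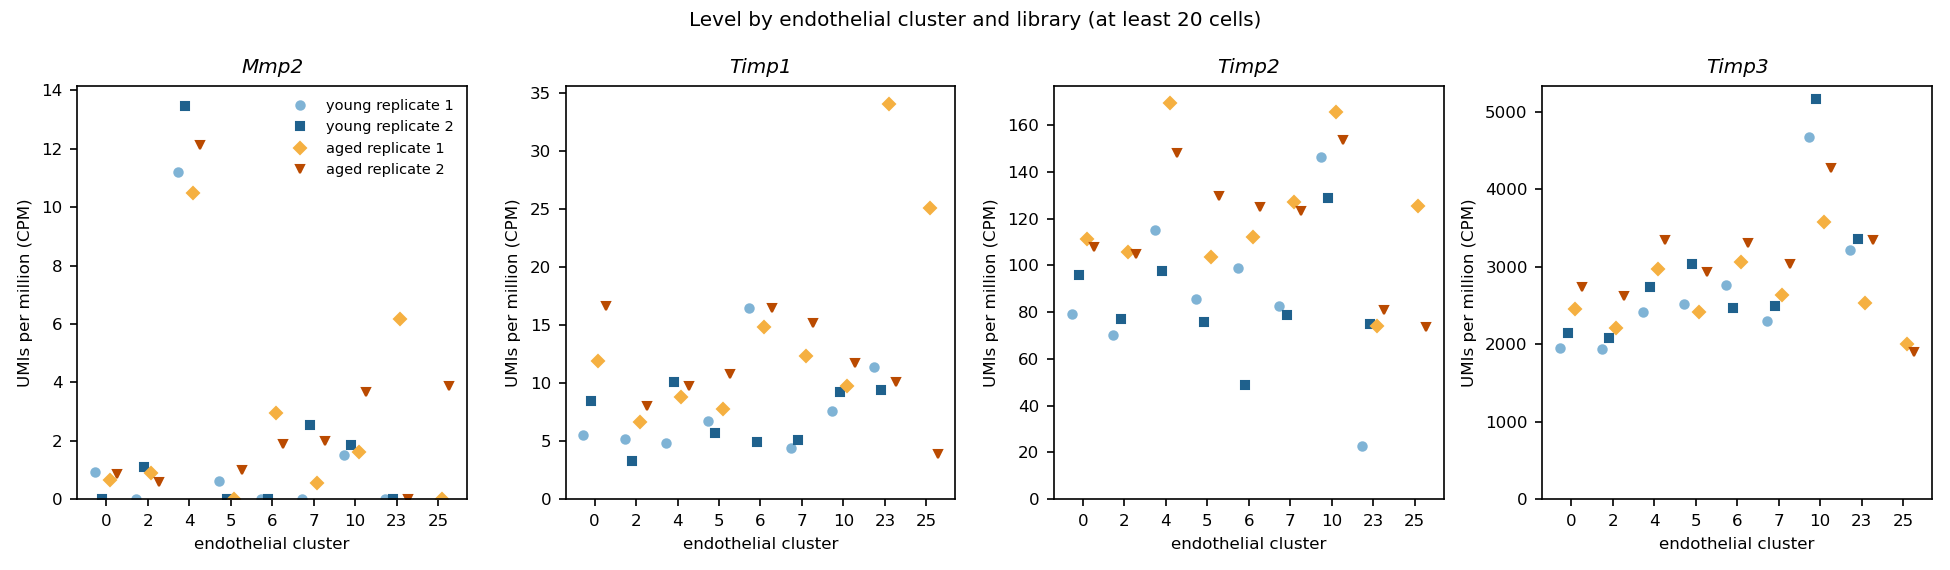
Level (CPM, linear axes from 0) of Mmp2, Timp1, Timp2 and Timp3 in each endothelial cluster, 1 point per library with at least 20 cells. Mmp2 is seen mainly in cluster 4 (10.5 to 13.5 CPM), and Timp3 is highest in cluster 10, where the young libraries (4681 and 5171 CPM) are above the aged ones (3579 and 4279 CPM).

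In parietal epithelial cells, with 36 to 79 cells per library, 3 members were tested and none passed. In this class 0.00% of 5246 genes passed with edgeR, while 555 had an unadjusted p under 0.05 and DESeq2 called 14 genes. Mmp14 was at 40.9 CPM (8 UMIs) and 40.3 CPM (9 UMIs) in young and 9.95 CPM (4 UMIs) and 28.8 CPM (14 UMIs) in aged libraries, a log2 fold change of -0.95 ± 0.59 (SE). Timp3 had a log2 fold change of -0.20 ± 0.19 and Timp2 of 0.15 ± 0.26, which changed sign without young replicate 1 (-0.04) or aged replicate 2 (-0.07) and was 0.39 without young replicate 2. Timp1, which missed the filter, had 2 and 0 UMIs in young and 5 and 14 UMIs in aged libraries, so that its levels of 10.2 and 0 CPM against 12.4 and 28.8 CPM rest on few molecules. In smooth muscle and renin cells, with 38 to 92 cells per library, 2 members were tested and neither passed, where 1.68% of 3751 genes did. Timp2 had a log2 fold change of 0.27 ± 0.24, and -0.01 with mixed cells kept. Timp3 had one of -0.02 ± 0.20, and 0.21 without young replicate 2 as well as without aged replicate 1. Mmp2 was at 8.23 and 7.63 CPM in young and 26.9 and 29.2 CPM in aged libraries, on 2 and 2 against 6 and 5 UMIs, and was below the filter. In the same sums the 8 mesangial markers were at 21.1% and 19.1% of their mesangial level in young and 21.0% and 25.0% in aged libraries, with none at 0, and their part in the level of Mmp2 was not tested.

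Immune cells supplied Mmp14, Timp2 and Mmp9, and most of them came from the aged libraries, with 571 and 504 macrophages against 3 and 15 in the young ones. An Mmp14 UMI was found in 124 of 571 (21.7%) and 173 of 504 (34.3%) aged macrophages. Monocytes and dendritic cells had Mmp14 at 13.9 and 24.0 CPM in aged libraries and no UMI in 113 and 79 young cells, which allows a share of cells with a UMI of up to 2.65% and 3.8%, beside 5.16% and 8.02% in the aged libraries. In an unnamed cluster of mixed markers that was nearest to this class, 306 cells of young replicate 2 had 2 Mmp14 UMIs (5.05 CPM). No test was made. In monocytes and dendritic cells their own list was at 132% and 129% of its level in young and 83.8% and 54.8% in aged libraries, and the macrophage list was at 911 and 1060 CPM in young and 1115 and 1303 CPM in aged libraries. The part of these in the level of Mmp14 was not tested. In aged macrophages the monocyte and dendritic list was at 5.99% and 2.91% of its own level.

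A cluster of 74 cells, 73 of them from aged replicate 2, stayed unnamed, with Sox9, Rab3c, Ankrd1 and Tnc among its leading genes and mesangial markers at 36.3% of their best cluster. It had Mmp2 at 81.0 CPM, Mmp14 at 31.9 CPM, Mmp3 at 13.7 CPM and Timp1 at 10.3 CPM. It was left unnamed because its leading genes held Cp, of the parietal epithelial list, and no mesangial marker. It therefore entered no comparison of classes. Rab3c, Spink8, Gpc3, Cpne4 and Cp were among the leading genes of both this cluster and mesangial cluster 11. What leaving it out did to the mesangial values of aged replicate 2 was not tested.

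Among 16 genes that activate or restrain these enzymes, 1 of the 8 tested in podocytes rose with age by edgeR's adjusted p, as did 4 of 11 in endothelial cells, 2 of 9 in mesangial cells, 1 of 5 in smooth muscle and renin cells and 0 of 10 in parietal epithelial cells. None fell. Over all genes, 5.16%, 6.06%, 6.29%, 1.68% and 0.00% passed in these classes in either direction, and since the list was chosen with results of these data known, nothing is read from its counts. Serpine2, protease nexin 1, an inhibitor of plasminogen activators and other serine proteases, rose in endothelial cells from 26.1 and 34.7 to 87.5 and 97.5 CPM (edgeR adjusted p = 1.01e-06), in mesangial cells from 1965 and 1804 to 3325 and 3097 CPM (edgeR adjusted p = 0.0131), and in smooth muscle and renin cells from 358 and 324 to 1112 and 1208 CPM (edgeR adjusted p = 9.65e-06). The groups did not overlap in any of these 3 classes, and Serpine2 in smooth muscle and renin cells passed under all 14 alternatives run there. In the smooth muscle and renin sums the 8 mesangial markers were at 19.1% to 25.0% of their mesangial level. Their part in the level of Serpine2 there was not tested. Serpine2 is among the top 10 genes of mesangial cluster 11, which is mostly aged.

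Plat, the tissue plasminogen activator, which makes plasmin from its precursor, rose in the same tests in endothelial cells from 3326 and 2823 to 5853 and 4089 CPM (edgeR adjusted p = 0.0252) and in mesangial cells from 201 and 256 to 507 and 304 CPM (edgeR adjusted p = 0.0375). Its level in podocytes, 1805 and 1933 CPM in young and 1676 and 1900 CPM in aged libraries, overlapped between groups. In the mesangial sums the 8 endothelial markers were at 8.28% to 9.44% of their endothelial level. Their part in the mesangial level of Plat was not tested. Plaur, the urokinase receptor (log2 fold change 0.73 ± 0.19, edgeR adjusted p = 0.0252), and Furin, a protease that cuts the precursor of MT1-MMP (0.50 ± 0.14, edgeR adjusted p = 0.0328), rose in endothelial cells. Reck, a membrane-bound inhibitor of metalloproteinases, rose in podocytes from 14.96 and 20.9 to 27.9 and 30.4 CPM (edgeR adjusted p = 0.0106). Every endothelial call of these 4 genes (Serpine2, Plat, Plaur and Furin) was lost without young replicate 1 and without young replicate 2, as were the 2 mesangial calls, with directions kept. Plat, Plaur and Furin in endothelial cells were also lost without aged replicate 1, and Furin without aged replicate 2. Plat in mesangial cells was reversed, at -0.66, with mixed cells kept. Reck in podocytes was lost without young replicate 1 or aged replicate 2, with DESeq2, with thinned sums and with doublets kept. Without the low-count filter all 4 endothelial calls were lost, and with DESeq2 that of Furin.

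Of 19 other genes of the 2 families, the filter left 2 to test in podocytes, 6 in the endothelial class, 3 in mesangial cells and 1 in parietal cells. Mmp15 (MT2-MMP), a membrane-anchored relative of Mmp14, fell in endothelial cells from 27.4 and 30.9 to 14.7 and 17.9 CPM (log2 fold change -0.71 ± 0.17, edgeR adjusted p = 0.0137), and Mmp16 (MT3-MMP) fell in mesangial cells from 21.6 and 27.5 to 7.28 and 8.34 CPM (-1.51 ± 0.27, edgeR adjusted p = 0.00882). No other of these passed. Mmp15 was not called without either young library, without aged replicate 1, with DESeq2 or without the low-count filter, and Mmp16 without either young library. Of 9 ADAM proteases, which cut cell surface proteins, Adam9 rose in podocytes from 22.2 and 28.3 to 42.5 and 42.6 CPM (edgeR adjusted p = 0.00203), in endothelial cells (0.74 ± 0.19, edgeR adjusted p = 0.0224) and in mesangial cells (0.62 ± 0.16, edgeR adjusted p = 0.0482), and Adam19 fell in endothelial cells (-1.35 ± 0.33, edgeR adjusted p = 0.0169). Without either young library the endothelial and mesangial calls were lost, and Adam9 in podocytes still passed without any 1 library but not with doublets kept. The endothelial calls of both genes were also lost with DESeq2 and without the low-count filter, and the mesangial call of Adam9 with DESeq2 and with thinned sums. Of 15 genes known to respond to tissue dissociation, 4 rose and 1 fell in podocytes, 2 rose in endothelial cells and 5 fell in mesangial cells, and none passed in the other 2 classes, beside 5.16%, 6.06% and 6.29% of all genes in these 3 classes. Their part in the members' values was not tested.

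Over the 39 class and library sums with at least 20 cells, the gene whose log2 level was most like that of Mmp3 was Tmem215 (Pearson r = 0.99), followed by Cntn5 (0.99) and Rab3c (0.98). Mmp2 was most like Wisp1 (0.91), Dennd2a (0.90) and Ptn (0.89), and Mmp14 like Itga9 (0.89), Fblim1 (0.84) and Soga1 (0.83). Mmp9 was most like Stfa2l1, Retnlg and Mrgpra2a (0.98 to 0.99). Among the inhibitors, Timp3 was most like Wwtr1, Fermt2 and Plscr2 (each 0.95), Timp2 like Capns1 (0.85), Ptms (0.84) and Eid1 (0.82), and Timp1 like Fzd6 (0.74), Mxra7 (0.70) and Adarb1 (0.69). Mmp3 had UMIs only in the mesangial sums, apart from 0.186 CPM in endothelial cells of aged replicate 1, and Mmp9 was high only in neutrophil sums. Their correlations therefore rest on few points, and the genes named are the highest of all those compared. The points share libraries, depth and classes, so these are descriptions. Mmp10 was below the level needed.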

How the data were processed

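Gene counts per cell were deposited by the authors as 10x matrices of UMI counts, aligned to GRCm38. Cell Ranger 6.0.1 is named per the file headers and the submitters' processing notes, which also name Partek, while the labels' protocol names Cell Ranger 3.1.0. Further steps are not given in the sources used here. The counts deposited by the authors are raw.

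Cells with at least 500 genes and at most 20% mitochondrial UMIs were kept. Doublets were removed by scrublet score at a rate of 0.8% per 1000 cells, 1876 of 29876 cells (6.28%), because its automatic cut-off marked 0.449%. Cells were clustered with scanpy 1.11.5 (2000 variable genes, 30 components, 15 neighbours, Leiden 0.10.2 at resolution 1) into 28 clusters, of which 23 were named by 8 fixed markers per class. The levels that decide a name (0.35 of the best cluster, and 0.25 with 3 markers of another class for a mixed one) were set after the data were seen. Cells with markers of another class were left unnamed, unless the classes were set as related. Related were mesangial with smooth muscle and renin cells, and parietal epithelial with tubule cells. So were macrophages, monocytes and dendritic cells, and neutrophils, and monocytes and dendritic cells with T and NK cells. Markers of related classes can therefore remain in a sum. A cluster whose leading genes held more markers of an unrelated class than of its own was also left unnamed.

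UMI counts were summed per class and library and tested with edgeR 4.0.16 (R 4.3.3; quasi-likelihood test, TMM, filterByExpr, Benjamini-Hochberg adjustment over all genes tested), aged minus young. DESeq2 1.42.0 was an alternative. A standard error is that of the log2 fold change. On simulated counts the edgeR step was tested for each class. CPM intervals are exact Poisson and shares exact binomial (95%). A count of 0 allows up to 3 counts. Intervals cover counting error only.

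The members, the lists of related genes and the markers were chosen with earlier results of these data known. All 8 members are named in every class; genes of the lists are named where called in at least 1 class, the dissociation genes are only counted, 1 gene of the list of activators and regulators is not reported here and is left out of that list's counts, and the 3 genes most like each member are named among genes with at least 20 CPM in a sum. Gene IDs matched GENCODE vM21 for 52403 of 52636. Mmp2 and Mmp9 have no entry in the promoter table. The labels do not say that replicate numbers pair libraries. Replicates differed by more than sampling noise (chi-square per degree of freedom 13.2 for young and 24.9 for aged libraries).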

Additional observations from a re-analysis of the deposited data

Results flagged for a closer look

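In 7 pairs of classes, both aged libraries were above both young ones in the first class and below them in the second, by CPM of the same member. In none of these pairs was the difference between the classes tested. The log2 fold changes below are from the fit. Mmp14 was higher in aged mesangial cells (log2 fold change 0.49) and lower in aged podocytes (-3.34), parietal epithelial cells (-0.95) and endothelial cells (-0.11), so that the log2 fold changes differed by 3.83, 1.44 and 0.60. Timp2 was lower in aged podocytes (-0.09) and higher in endothelial (0.59), mesangial (0.19), and smooth muscle and renin cells (0.27), differences of 0.68, 0.28 and 0.37. With mixed cells kept, Timp2 in smooth muscle and renin cells was -0.01. Timp3 was higher in aged mesangial cells (0.41) and lower in aged parietal epithelial cells (-0.20), a difference of 0.61. Of these, Mmp14 in podocytes and Timp2 in endothelial cells passed the threshold within their own class. The log2 fold changes of Mmp14 in endothelial cells and of Timp2 in podocytes were smaller than their standard errors.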

How the results depend on the processing

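Of 257 log2 fold changes of members recomputed under up to 14 alternatives per class, 213 moved by less than the spread between replicates and 44 by more, and none of the 5 that passed the threshold changed sign. Mmp3 in mesangial cells passed under all 13 alternatives run there (2.99 to 3.90).

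Counts of genes called depended on the setting. Without the low-count filter they were 0 in endothelial, 1302 in mesangial, 251 in parietal epithelial and 107 in smooth muscle and renin cells, and members called were 0 in endothelial and 3 in mesangial cells. With DESeq2's Wald test they were 264 in podocytes, 509 in endothelial, 414 in mesangial, 14 in parietal epithelial and 21 in smooth muscle and renin cells. With doublets kept, podocytes had 147 genes and 0 members called. With sums thinned to equal depth, smooth muscle and renin cells had 4 genes and endothelial cells 1 member called. With a mitochondrial limit of 10%, parietal epithelial cells had 91 genes called. With mixed cells kept, an alternative chosen after seeing the data, mesangial cells had 1534 genes and 4 members called and smooth muscle and renin cells 40 genes. Leaving out each library in turn gave 293 to 905 genes in podocytes, 0 to 753 in endothelial, 58 to 1831 in mesangial, 0 to 345 in parietal epithelial and 44 to 107 in smooth muscle and renin cells, and 0 to 1 members in endothelial and 1 to 3 in mesangial cells; the lone library of a group was assumed to vary like the other group's. The causes were not tested.

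With the replicate number as a block (replicate block), 864, 1288, 1262, 128 and 30 genes were called in podocytes, endothelial, mesangial, parietal epithelial, and smooth muscle and renin cells, and 2 members in mesangial cells, where Mmp2 was added. The libraries share only a number: the correlation across genes of same-numbered libraries' deviations from their group means was between -0.07 and 0.39 over the 5 classes. Leiden resolution 0.5 could not be fitted for mesangial cells, which then numbered under 20 in young replicate 2. Members with few UMIs (Mmp9, Mmp10, Timp1 outside endothelial cells and podocytes) are limited by depth.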

Other observations

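Levels over all kept cells need no cell classes, and include the unnamed cells. Mmp3 was at 0.812 and 0.988 CPM in the young and 9.86 and 9.50 CPM in the aged libraries, and Timp1 at 2.84 and 2.90 CPM against 7.28 and 8.01 CPM. Mmp14 was at 22.5 and 23.0 CPM in young and 28.6 and 37.6 CPM in aged libraries. Mmp2 was at 19.95 and 20.4 CPM against 22.1 and 33.2 CPM. Timp2 (342, 318, 303 and 345 CPM) and Timp3 (1982, 2029, 1910 and 2020 CPM) overlapped between the groups. Fewer cells of a type and less RNA per cell cannot be told apart in these sums. Between 80.1% (Mmp2) and 100% (Mmp10) of a member's UMIs were in named cells.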
